A study of Homo sapiens with 12 samples.

Results

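The genes SLC35A1, SLC35A2, SLC35A3, SLC35A4 and SLC35A5 encode the 5 members of the SLC35A family of nucleotide sugar transporters, and they were chosen by name. They are 5 of the 57820 gene IDs in the count files, and 40 of the 56092 splicing events in the event files belong to them. The cells were AsPC-1, an established human line of pancreatic cancer, transfected with a scrambled control (siControl) or with siRNA to ARNT (siARNT). Wells were divided the next day and kept at 21% O2 (normoxia) or for 24 h at 1% O2 (hypoxia), and poly(A) RNA was taken 48 h after transfection. The 4 groups, named normoxia siControl and siARNT and hypoxia siControl and siARNT, hold 3 libraries each, with the replicate letters A, B and C. All 12 libraries come from 1 line and from transfected cells. The design asks which changes under hypoxia need ARNT, the partner that the HIF alpha subunits require to bind DNA.

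Nucleotide sugar transporters of the SLC35 family sit in the membranes of the Golgi and the endoplasmic reticulum. They carry activated sugars from the cytosol into the lumen, where glycosyltransferases add them to proteins and lipids, and they export the nucleotide monophosphate left behind. SLC35A1 carries CMP-sialic acid, SLC35A2 UDP-galactose and SLC35A3 UDP-N-acetylglucosamine (UDP-GlcNAc), while the substrates of SLC35A4 and SLC35A5 are less settled. Pancreatic cancer cells make mucins and other heavily glycosylated, sialylated surface proteins, which are built from these sugars.

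Libraries held 38.53 to 84.34 M counts on genes, and 16999 genes were tested, all 5 SLC35A genes among them. ARNT, the siRNA target, had a mean of 62.4 ± 1.53 CPM (TMM-scaled counts per M) with siControl and 13.4 ± 0.56 with siARNT in normoxia, and of 69.1 ± 3.81 and 15.3 ± 1.04 in hypoxia (SD, n = 3). All 6 markers of a pancreatic epithelial line had a mean of at least 1 CPM, and 0 of 5 fibroblast, 0 of 4 leukocyte and 0 of 3 measured endothelial markers did. The summed level of the epithelial markers ran from 3550 to 4070 CPM in normoxia siControl, 5020 to 7880 in normoxia siARNT, 3550 to 4560 in hypoxia siControl and 3880 to 5460 in hypoxia siARNT. Library B of normoxia siARNT stood apart from A and C. Its counts differed from A by a chi-square of 89.11 per degree of freedom, and its log2 CPM, relative to the mean of all libraries, rose by 0.435 per 10 points of gene GC content, against 0.003 in A and 0.002 in C. Library C of hypoxia siARNT differed from A of its group by 61.18 per degree of freedom, with a GC slope of 0.245 against -0.181 in A and 0.02 in B, and its SLC35A1 level, 25.1 CPM, was the lowest of that group. In RNA from a culture, fewer cells with a transcript and less of it per cell cannot be told apart.

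Of the 5 genes, 1 rose with hypoxia in siControl cells, 2 fell with siARNT in normoxia and 3 fell with siARNT in hypoxia. With hypoxia in siARNT cells 0 of the 5 were called by edgeR or by DESeq2, and 0 had an unadjusted p under 0.05 in edgeR. Calls were made where the adjusted p fell under 0.05 in edgeR's quasi-likelihood test with Benjamini-Hochberg adjustment over all genes tested. By that rule 25.3% of all tested genes were called for hypoxia in siControl, 4.09% for hypoxia in siARNT, 20.2% for siARNT in normoxia and 29.1% for siARNT in hypoxia. For the interaction, the change with hypoxia in siARNT less the change in siControl, 4.69% were called, and 1 of the 5 genes was. Split by direction, the calls made up 2.21% higher and 1.89% lower for hypoxia in siARNT, 9.42% and 10.8% for siARNT in normoxia, 14.4% and 14.7% for siARNT in hypoxia, and 2.49% and 2.19% for the interaction. With 5 genes these counts are too small to set apart from those shares.

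**Figure D1:**
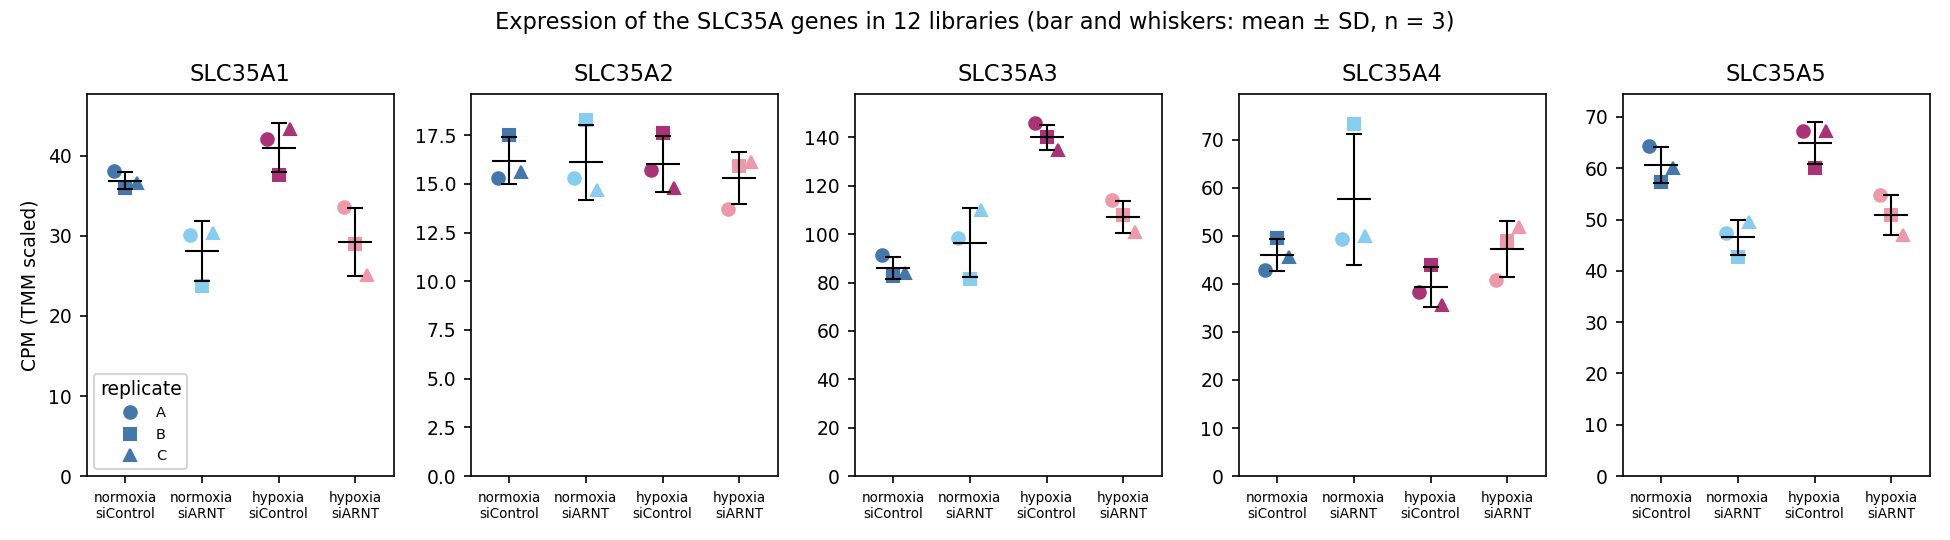
CPM of each SLC35A gene (vertical axes, from 0 and of different height, TMM scaled) in the 12 libraries, by group, with a marker shape for each replicate letter and the mean ± SD over 3 libraries. SLC35A3 in hypoxia siControl lies between 135 and 146 CPM, above the 9 other libraries, while SLC35A1 and SLC35A5 are lower in both siARNT groups than in both siControl groups.

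SLC35A3 (ENSG00000117620.8, chr1:99969351-100035637 on the plus strand of GRCh38), the UDP-GlcNAc transporter, brings in the sugar that starts the branches of N-glycans. It held 91.3, 82.8 and 83.9 CPM in replicates A, B and C of normoxia siControl. In hypoxia siControl it held 146, 140 and 135 CPM. These groups do not overlap, and SLC35A3 rose with hypoxia in siControl cells by 0.70 on the log2 scale, or 1.63-fold (SE 0.10, adjusted p 0.000268 in edgeR's quasi-likelihood test, n = 3). It was the only one of the 5 genes called there, where 10.4% of all genes were called higher and 14.9% lower.

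With siARNT, SLC35A3 held 98.5, 81.3 and 110 CPM in normoxia and 114, 108 and 101 CPM in hypoxia. These groups overlap, and the hypoxia change in siARNT cells was 0.16 (SE 0.10, adjusted p 0.379). It was 0.05, adjusted p 0.785, without library B of normoxia siARNT and 0.26, adjusted p 0.159, without library C. In hypoxia every siARNT library lay below every siControl library, and SLC35A3 fell by 0.38 on the log2 scale with siARNT (SE 0.10, adjusted p 0.00981). In normoxia the siARNT value was 0.16 (SE 0.10, adjusted p 0.219), and it was called without library B of normoxia siARNT (0.26, adjusted p 0.0403) and after correction for GC content (0.30, adjusted p 0.000109).

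The interaction for SLC35A3 was -0.55 (SE 0.13, adjusted p 0.041), so the rise with hypoxia was smaller in siARNT cells. The call was lost with RLE scaling (adjusted p 0.0534), with a block for siRNA and letter (adjusted p 0.078) and on leaving out any 1 library other than B of normoxia siARNT (adjusted p 0.0558 to 0.13). Without that library the interaction was -0.64 (adjusted p 0.00461). The difference was negative in every fit, from -0.64 to -0.45. An antisense gene, AC118553.1, and a same-strand coding model, AC118553.2, overlap SLC35A3 in GENCODE 29, so some reads could be shared with them or left uncounted.

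**Figure D2:**
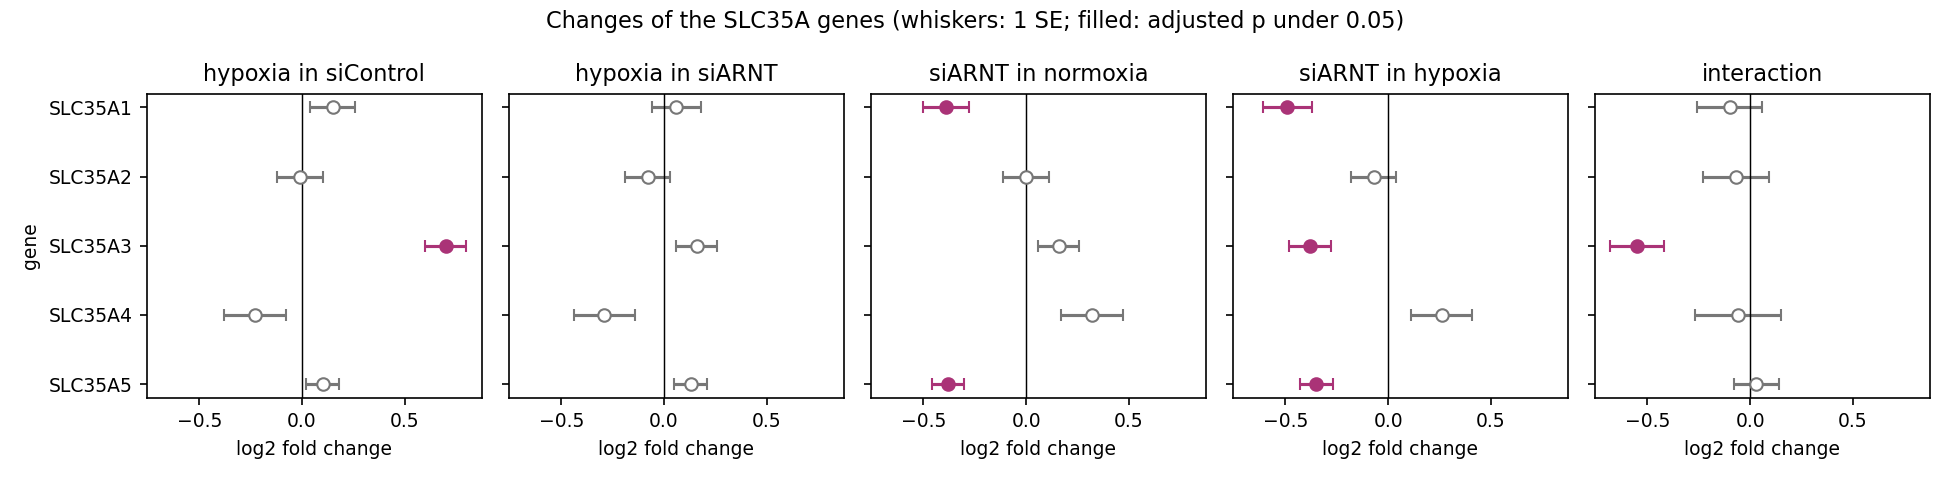
Log2 fold change of each SLC35A gene (horizontal axis) in the 5 comparisons, with whiskers of 1 SE from edgeR and filled points for an adjusted p under 0.05. SLC35A3 alone has filled points for hypoxia with siControl (0.70) and the interaction (-0.55), and SLC35A1 and SLC35A5 are filled for siARNT at both oxygen levels.

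Reads were also taken across single splice junctions of SLC35A3. The most-read junction, from 100477089 to 100480858 on chromosome 1 of the event files, held 6.75 ± 0.608 reads per M gene counts in normoxia siControl and 9.68 ± 0.856 in hypoxia siControl (SD, n = 3). In the siARNT groups it held 6.43 ± 0.887 in normoxia and 6.82 ± 0.299 in hypoxia. Near the 3′ end, the junction from 100483371 to 100487942 stood at 3.96 ± 0.385, 3.97 ± 0.453, 5.94 ± 0.277 and 4.34 ± 0.263 in the siControl and siARNT groups of normoxia and then of hypoxia. Both were highest in hypoxia siControl. Near the start of the gene, so was the junction from 100459297 to 100464817. It stood at 4.32 ± 0.204, 4.05 ± 0.443, 6.22 ± 1.07 and 4.52 ± 1.14 in the same order. Many of these reads also enter the gene's counts, so they are no second test of the rise.

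The events of SLC35A3 hold 2 first exons that lie close together. Reads from any other start were not counted. In the coordinates of the event files, whose genome build is not named, the upstream first exon is chr1:100435535-100435718 and the downstream one is chr1:100435992-100436200. Both are joined to a coding exon of 205 bases, chr1:100459093-100459297, directly or through an exon of 99 bases, chr1:100440527-100440625, that holds 0 coding bases in GENCODE 29. The downstream first exon holds 108 coding bases in that annotation and the upstream one 0. RefSeq gives a promoter window for each of 2 start sites of the gene. Both windows are shown because the reads of the 2 first exons are compared next. Capitals mark each ACGTG or GCGTG, on either strand, the core letters of hypoxia response elements, which HIF with ARNT binds.

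Upstream start of SLC35A3, chr1:99969746-99970045, plus strand, GRCh38.p14 (RefSeq): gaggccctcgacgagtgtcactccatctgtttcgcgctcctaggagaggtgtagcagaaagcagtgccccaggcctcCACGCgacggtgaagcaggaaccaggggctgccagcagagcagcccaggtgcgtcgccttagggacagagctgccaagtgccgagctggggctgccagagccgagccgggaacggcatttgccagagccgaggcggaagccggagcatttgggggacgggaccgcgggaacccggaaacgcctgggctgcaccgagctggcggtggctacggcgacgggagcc
Downstream start of SLC35A3, chr1:99970267-99970566, plus strand, GRCh38.p14 (RefSeq): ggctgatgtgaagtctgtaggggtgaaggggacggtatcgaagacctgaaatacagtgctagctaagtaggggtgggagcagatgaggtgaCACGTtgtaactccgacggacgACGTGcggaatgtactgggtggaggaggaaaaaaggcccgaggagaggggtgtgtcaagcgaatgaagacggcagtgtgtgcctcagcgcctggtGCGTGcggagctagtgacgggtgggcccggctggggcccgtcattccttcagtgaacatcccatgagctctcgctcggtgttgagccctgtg

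Each window runs from 250 bases before to 50 after the start. The upstream window holds 1 match to these motifs and the downstream window 3. Of 35116 promoter windows of 300 bases in the RefSeq table, 48.4% hold at least 1 match and 10.1% at least 3, where a CACGTG counts once on each strand. All 5 genes had a window there, 8 in all. SLC35A1 had 1 match, SLC35A4 had 4, the windows of SLC35A5 had 1 and 7, and both of SLC35A2 had 0. A match describes letters only, and binding was not measured.

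Reads that left the downstream first exon for the 205-base exon numbered 20, 12 and 12 in replicates A, B and C of normoxia siControl and 44, 45 and 28 in hypoxia siControl. With siARNT they numbered 32, 21 and 24 in normoxia and 18, 26 and 13 in hypoxia. From the upstream first exon they numbered 8, 11 and 8 in normoxia siControl and 14, 6 and 9 in hypoxia siControl. The upstream counts with siARNT were 17, 11 and 4 in normoxia and 9, 8 and 10 in hypoxia. Per M gene counts the upstream mean was highest in hypoxia siARNT, at 0.207 ± 0.0472. Hypoxia siControl thus had the most reads per M gene counts from the downstream exon, as the plot of junction reads shows.

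Counting also the reads that went to the 99-base exon, the downstream first exon gave 67.6, 53.6 and 65.2% of all reads leaving either first exon in normoxia siControl and 75.4, 88.7 and 76.9% in hypoxia siControl. These groups do not overlap. With siARNT the share was 66.7, 60.5 and 76.5% in normoxia and 67.7, 76.9 and 55.6% in hypoxia, which overlap. In normoxia siControl the junctions into the 205-base exon averaged 0.164 (upstream), 0.248 (downstream) and 0.56 (99-base exon) reads per M gene counts. The main junction out of the 205-base exon averaged 4.32. The share thus covers only the listed reads from these first exons and is not a share of all SLC35A3 starts. The comparison was chosen after its values were seen and rests on few reads, so it is a description with no test.

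**Figure D3:**
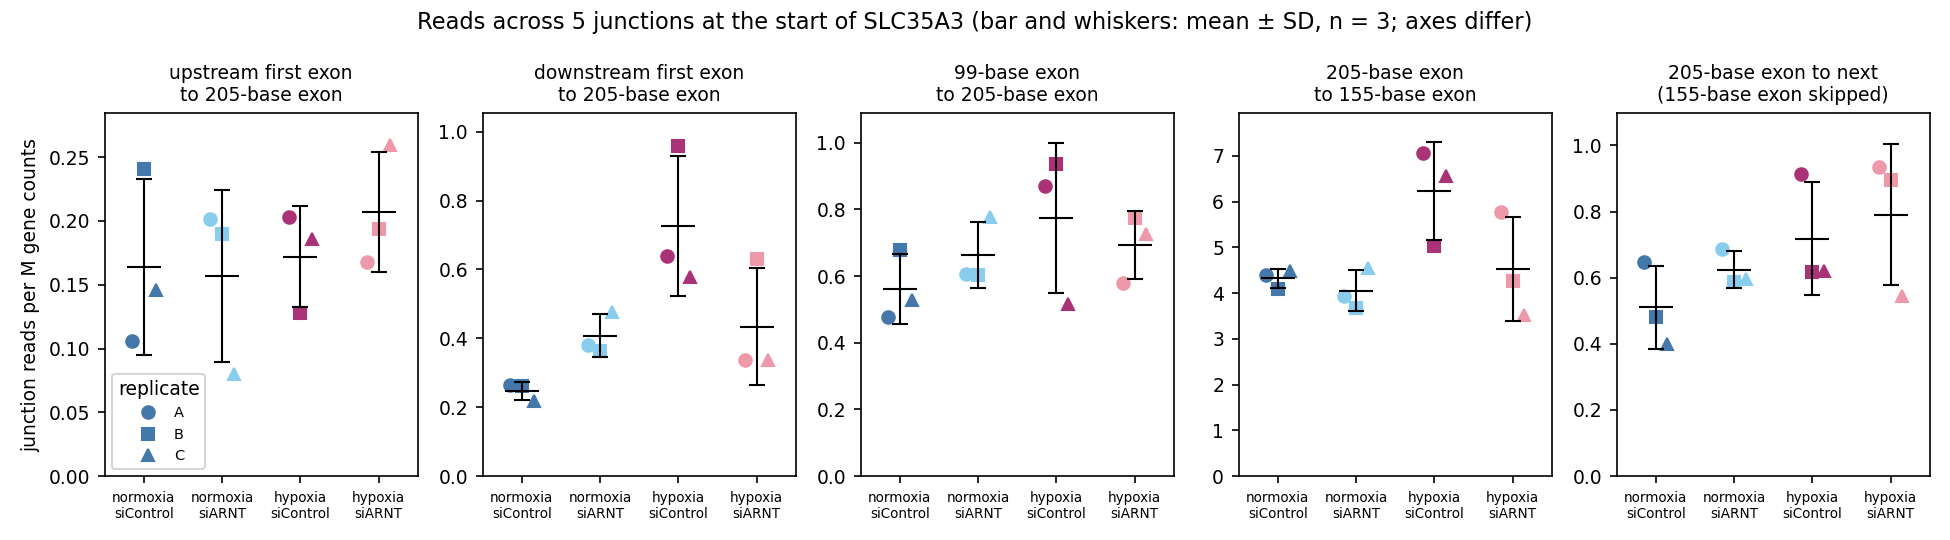
Reads per M gene counts (vertical axes, from 0 and of different height) across 5 junctions of SLC35A3 in the 12 libraries, with a marker shape for each replicate letter and the mean ± SD over 3 libraries. Reads from the downstream first exon average 0.248 ± 0.026 in normoxia siControl and 0.725 ± 0.203 in hypoxia siControl, while those from the upstream first exon average 0.164 ± 0.0692 and 0.172 ± 0.0396.

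An event that holds the downstream junction, the 99-base exon after the downstream first exon, was tested with all other events. Its percent spliced in (PSI), the share of the form with the exon, was 49.4, 58.6 and 57.1% in normoxia siControl and 42.5, 33.8 and 32.5% in hypoxia siControl. In siARNT it was 45.3, 46.8 and 46.1% in normoxia and 48.6, 40.9 and 53.6% in hypoxia. The log2 odds ratio for hypoxia in siControl was -1.02 (SE 0.30, unadjusted p 0.00495, adjusted p 0.629 over all events, by edgeR's quasi-likelihood test on the junction counts). For the interaction it was 1.10 (SE 0.42, adjusted p 0.997 in edgeR). Neither was called. The inclusion value is the mean of 2 very unequal junctions. In replicate A of normoxia siControl 36 reads ran from the 99-base exon to the 205-base exon, while 3 entered it from the downstream first exon and 3 from the upstream one.

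Across the 40 events of the family, 36 had enough reads to be tested and 0 were called in any of the 5 comparisons with edgeR (limma for intron retention). Of the 36, an unadjusted p under 0.05 was reached by 3 for hypoxia in siControl, 0 for hypoxia in siARNT, 2 for siARNT in normoxia, 1 for siARNT in hypoxia and 1 for the interaction. Over all events tested, 5.58, 4.57, 7.83, 6.3 and 4.24% reached it in the same order. Over all 43635 tested events the calls were few as well. They made up 0.0435% for hypoxia in siControl, 0% for hypoxia in siARNT, 0.126% for siARNT in normoxia, 0.055% for siARNT in hypoxia and 0.00458% for the interaction. The count in the family was 0 under each alternative run too, limma on the logit of PSI among them. With 3 libraries a group this does not show that splicing was alike. SLC35A3 has 22 of the events, SLC35A1 10, SLC35A5 7 and SLC35A2 1, and many share exons.

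The events use 50 different junctions of 4 genes, and where a junction occurs in several events its counts are the same in each. By length, 35 of the 50 match an intron of the gene in GENCODE 29 at 1 constant shift of position per gene. Of the 50, 0 lie at the same position in GRCh38, the build that the submitters' processing notes name. Exons are therefore printed at the annotation's own GRCh38 positions, and events at those of the files.

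Skips of SLC35A1 and SLC35A3 remove exons with related ends. The SLC35A1 exon has 160 bases and the SLC35A3 exon has 155, all coding, and neither length is a multiple of 3. Aligned at their 3′ ends without a gap, their last 90 bases are identical at 51 positions (56.7%). Aligned in the same way, the last 90 bases of the exon in the most-read skip of SLC35A5 match SLC35A1 at 32 positions (35.6%). They match SLC35A3 at 28 (31.1%). Only this alignment from the 3′ ends was made, so likeness of the SLC35A5 exon at another offset was not tested. Both exons are shown because their skips are described next, with the identical bases of those ends in capitals.

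SLC35A1 exon, chr6:87500508-87500667, plus strand, GRCh38 (GENCODE 29): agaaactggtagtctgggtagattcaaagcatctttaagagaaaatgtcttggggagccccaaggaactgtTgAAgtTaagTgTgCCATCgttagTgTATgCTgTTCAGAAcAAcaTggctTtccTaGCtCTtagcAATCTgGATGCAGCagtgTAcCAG
SLC35A3 exon, chr1:99999261-99999415, plus strand, GRCh38 (GENCODE 29): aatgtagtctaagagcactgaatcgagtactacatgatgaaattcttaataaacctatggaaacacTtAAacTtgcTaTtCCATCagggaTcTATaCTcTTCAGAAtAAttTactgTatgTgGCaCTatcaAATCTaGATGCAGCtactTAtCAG

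Both exons were mostly retained. The PSI of the SLC35A1 exon was 94.6 ± 1.29%, 95.5 ± 2.2%, 96.5 ± 0.676% and 96.1 ± 1.17% in the siControl and siARNT groups of normoxia and then of hypoxia (SD, n = 3). For the SLC35A3 exon it was 89.1, 90.1 and 92% in normoxia siControl and 89.6, 90.4 and 92.2% in hypoxia siControl. With siARNT it was 86.2, 87 and 89.2% in normoxia and 86.5, 83.1 and 89.1% in hypoxia. For siARNT in hypoxia the log2 odds ratio was -0.62 (SE 0.22, unadjusted p 0.0171, adjusted p 0.695 in edgeR), which is no call. The junction that skips the SLC35A3 exon is in GENCODE 29 only in transcripts classed as subject to nonsense-mediated decay. This skip was picked after its values were seen.

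Further along SLC35A3, an exon of 123 coding bases, chr1:100472590-100472712 in the files, was retained at 96.9 ± 1.03%, 95.8 ± 1.69%, 96.3 ± 1.09% and 94.4 ± 0.506% in the siControl and siARNT groups of normoxia and then of hypoxia. An exon of 36 bases, chr1:100474844-100474879, follows it, which GENCODE 29 holds in 1 transcript, classed as subject to nonsense-mediated decay. Its PSI after the 123-base exon was 8.06, 6.27 and 7.29% in normoxia siControl and 5.66, 3.52 and 3.1% in hypoxia siControl. With siARNT it was 5.27, 3.99 and 5.03% in normoxia and 3.8, 3.7 and 1.73% in hypoxia. Normoxia siControl was the highest group and overlapped none of the others. The log2 odds ratio was -0.84 for hypoxia in siControl (SE 0.29, adjusted p 0.798) and -0.66 for siARNT in normoxia (SE 0.29, adjusted p 0.628) in edgeR. Neither was called, and this event too was picked after its values were seen. Entered directly from the 155-base exon, the same exon had a log2 odds ratio of -1.25 for hypoxia in siControl (adjusted p 0.874 in edgeR), and the entering junction then held 0 to 4 reads in a library.

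The other most-read SLC35A3 events were not called either. The acceptor 71 bases into the exon that begins at 100487942 took 13 ± 0.405%, 10.3 ± 9.51%, 12.1 ± 2% and 11 ± 1.72% of reads in the siControl and siARNT groups of normoxia and then of hypoxia. The wide spread of normoxia siARNT comes from library C, where that junction is listed at 0 reads against 50 and 46 in A and B. A donor 4 bases downstream of the usual one, after the 205-base exon, took 2.25 ± 0.429%, 1.59 ± 0.348%, 3.03 ± 1.97% and 3.07 ± 1.04% in the same order. The pair of coding exons of 119 and 134 bases was retained at 94.6 ± 0.572%, 95.5 ± 0.847%, 95.6 ± 1.31% and 97.4 ± 2.39%. The junction that skips both is listed at 9, 10 and 0 reads in A, B and C of hypoxia siARNT. Of the 123-base exon and a 33-base exon in alternation, the first took 93.9 ± 1.82%, 93.9 ± 1.03%, 95.8 ± 2.68% and 97.2 ± 2%. In replicates A, B and C the junction into the 33-base exon is listed at 41, 16 and 0 reads in normoxia siControl. It is listed at 33, 20 and 20 in normoxia siARNT, 49, 21 and 0 in hypoxia siControl and 20, 0 and 0 in hypoxia siARNT. The group values of this event therefore depend on listings of 0.

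SLC35A1 (ENSG00000164414.12, chr6:87470623-87512336 on the plus strand of GRCh38) brings CMP-sialic acid to the sialyltransferases of the Golgi. It held 38.1, 36 and 36.6 CPM in normoxia siControl and 30.1, 23.8 and 30.4 CPM in normoxia siARNT. In hypoxia it held 42.1, 37.6 and 43.4 CPM in siControl and 33.6, 29 and 25.1 CPM in siARNT. Every siARNT library lay below every siControl library. SLC35A1 fell with siARNT in normoxia by 0.39 on the log2 scale (SE 0.11, adjusted p 0.0334) and in hypoxia by 0.49 (SE 0.12, adjusted p 0.00735) in edgeR, where 10.8% and 14.7% of all genes were called lower.

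The normoxia call for SLC35A1 was lost on leaving out library A (adjusted p 0.102), B (0.0662) or C (0.0854) of normoxia siControl, B of normoxia siARNT (0.0918) or B of hypoxia siARNT (0.0523). Correction for GC content moved its size to -0.25 with the call kept (adjusted p 0.00125). The hypoxia call was kept on leaving out each of the 12 libraries. Hypoxia itself gave no call for SLC35A1, with 0.15 (SE 0.11, adjusted p 0.368) with siControl and 0.06 with siARNT (SE 0.12, adjusted p 0.802), and the interaction was -0.10 (SE 0.16, adjusted p 0.753). After correction for GC content the siControl value was called (0.19, adjusted p 0.00546). The coding model AL049697.1 overlaps SLC35A1 on the same strand, so some of its reads could be left uncounted.

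The 10 splicing events of SLC35A1 hold 16 junctions, of which 8 are not in GENCODE 29. Among these is an exon of 45 bases, chr6:88197776-88197820 in the files, that is used in alternation with one of 73 bases. The 45-base exon took 61.1 ± 1.43%, 69.7 ± 10.7%, 64.5 ± 2.14% and 63.5 ± 4.77% of the pair in the siControl and siARNT groups of normoxia and then of hypoxia. It is rare beside the direct junction from 88187257 to 88210226, with 0.483 ± 0.0577 reads per M gene counts entering it and 5.51 ± 0.345 on the direct junction in normoxia siControl. The event that joins the 45-base exon with the 160-base coding exon after it had a PSI of 87.8 ± 3.13%, 89.8 ± 4.19%, 91.7 ± 1.66% and 91 ± 2.17%. This is not the share of the joined form, since the inclusion value averages very unequal junctions. In replicate A of normoxia siControl 40 reads entered the 45-base exon, 23 ran on to the 160-base exon and 476 left the latter. Transcripts without the 45-base exon share those 476. Against the direct junction, the PSI of the 45-base exon was 7.18 ± 0.76% in normoxia siControl.

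Of the 4 genes that make CMP-sialic acid, 1 was called higher and 2 lower for hypoxia in siControl, 0 for hypoxia in siARNT, 2 lower for siARNT in normoxia, and 2 higher and 2 lower for siARNT in hypoxia. The list's median log2 change was -0.16, -0.09, -0.20 and -0.02 in these comparisons, beside 0.02, -0.04, 0.01 and 0.02 over all genes. Over all genes 10.4% were called higher and 14.9% lower for hypoxia in siControl, and 2.21% and 1.89% for hypoxia in siARNT. With siARNT the shares were 9.42% and 10.8% in normoxia and 14.4% and 14.7% in hypoxia. The same shares over all genes stand beside each list that follows. GNE, the enzyme that opens the pathway, fell with siARNT in hypoxia by 0.51 (adjusted p 0.00473 in edgeR). CMAS, which joins sialic acid to CMP and so makes what SLC35A1 carries, fell with siARNT in normoxia by 0.27 (adjusted p 0.032) and in hypoxia by 0.29 (adjusted p 0.0149), calls lost on leaving out 6 and 3 single libraries in turn. The call of CMAS in normoxia was also lost with only the 6 samples compared (adjusted p 0.0723) and with no filter (adjusted p 0.0912). NANP, a phosphatase of the pathway, fell with hypoxia in siControl by 0.74 (adjusted p 7.32e-05). In the other direction, NANP and NANS rose with siARNT in hypoxia by 0.30 (adjusted p 0.016) and 0.25 (adjusted p 0.0364) in edgeR. GNE rose with hypoxia in siControl by 0.36 (adjusted p 0.0351).

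Of 9 tested sialyltransferases, 1 rose and 1 fell with hypoxia in siControl, 1 fell with hypoxia in siARNT, 4 rose with siARNT in normoxia, and 2 rose and 1 fell with siARNT in hypoxia. Their median was 0.22, -0.14, 0.65 and 0.29, beside 0.02, -0.04, 0.01 and 0.02 over all genes. ST3GAL5, which makes the ganglioside GM3, fell with hypoxia by 0.32 in siControl (adjusted p 0.00269) and by 0.51 in siARNT (adjusted p 0.00226) in edgeR, and the latter call was lost in a fit of only the 6 samples compared (-0.49, adjusted p 0.071). ST3GAL1, which caps mucin-type cores with sialic acid, rose with siARNT in normoxia by 0.38 (adjusted p 0.00561) and in hypoxia by 0.36 (adjusted p 0.00436), while SLC35A1 fell.

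SLC35A5 (ENSG00000138459.4, chr3:112561709-112585577 on the plus strand of GRCh38) held 64.3, 57.4 and 60.1 CPM in normoxia siControl and 47.3, 42.6 and 49.5 CPM in normoxia siARNT. In hypoxia it held 67.2, 60.1 and 67.3 CPM in siControl and 54.8, 50.9 and 46.9 CPM in siARNT. As for SLC35A1, every siARNT library lay below every siControl library. SLC35A5 fell with siARNT in normoxia by 0.38 (SE 0.08, adjusted p 0.0073) and in hypoxia by 0.35 (SE 0.08, adjusted p 0.0066) in edgeR. Both calls were kept in every alternative, and the normoxia value was -0.23 after correction for GC content. Hypoxia gave 0.10 (SE 0.08, adjusted p 0.418) with siControl and 0.13 with siARNT (SE 0.08, adjusted p 0.383), with an interaction of 0.03 (SE 0.11, adjusted p 0.883). After correction for GC content the siControl value was called (0.14, adjusted p 0.00768).

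Across the 12 libraries the log2 CPM of SLC35A1 and SLC35A5 had a Pearson r of 0.97. SLC35A4 ran against both, with r of -0.87 to SLC35A1 and -0.86 to SLC35A5. These points share 4 groups and their library effects. The genes also differ in base composition, with 38.5% GC for SLC35A1 and SLC35A5 and 36.9% for SLC35A3, against 56.7% for SLC35A2, 54.4% for SLC35A4 and a median of 47.7% over tested genes. Library B of normoxia siARNT, with the steepest slope on GC content, had the least SLC35A1 and SLC35A5 of all 12 libraries and the most SLC35A4. The part of GC content in these correlations was not tested.

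The most-read skip of SLC35A5 removes an exon of 131 coding bases, chr3:112289387-112289517 in the files. Its PSI was 90 ± 2.75%, 86.7 ± 4.95%, 91.6 ± 2.82% and 90 ± 0.289% in the siControl and siARNT groups of normoxia and then of hypoxia. A donor 34 bases short of the usual one took 1.73 ± 1.95%, 3.29 ± 0.76%, 1.71 ± 0.842% and 3.6 ± 0.686%. An acceptor 10 bases into the 131-base exon is listed at 10 reads in replicate A of hypoxia siARNT and at 0 in the other libraries. Near the end of the gene an intron of 472 bases was kept at 96.5 ± 0.674%, 96.2 ± 1.16%, 95.7 ± 1.19% and 95.4 ± 2.48%, and GENCODE 29 holds this intron in the transcript SLC35A5-201.

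SLC35A2 (ENSG00000102100.10, chrX:48903180-48911958 on the minus strand of GRCh38) carries UDP-galactose, which galactosyltransferases add to N-glycans, mucin-type chains and lipids. It held 15.3, 17.5 and 15.6 CPM in normoxia siControl and 15.3, 18.3 and 14.7 CPM in normoxia siARNT. In hypoxia it held 15.7, 17.6 and 14.8 CPM in siControl and 13.7, 15.9 and 16.1 CPM in siARNT. All 4 groups overlap. Its log2 change was -0.01 for hypoxia in siControl (SE 0.11, 95% interval -0.26 to 0.24) and -0.08 for hypoxia in siARNT (SE 0.11, -0.33 to 0.17). With siARNT the change in normoxia was 0.00 (SE 0.11, -0.26 to 0.25), and that in hypoxia -0.07 (SE 0.11, -0.33 to 0.18). After correction for GC content SLC35A2 was called lower with siARNT in normoxia (-0.26, adjusted p 0.00504 in edgeR).

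Its single event is a choice of acceptor. The acceptor 590 bases further into the exon, past chrX:48762170-48762759 of the files, took 19.2, 17 and 32.5% of reads in normoxia siControl and 39.3, 28.8 and 30% in normoxia siARNT. In hypoxia it took 21.2, 13.3 and 13.9% in siControl and 25, 24.3 and 24.2% in siARNT. In hypoxia the siARNT libraries all lay above the siControl libraries, and in normoxia the groups overlap. The log2 odds ratio was 0.80 for siARNT in normoxia (adjusted p 0.633) and 0.70 in hypoxia (adjusted p 0.833) in edgeR, so neither was called. The event rests on an average of 45.6 reads per library.

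Of the 6 genes that make UDP-galactose, 1 rose with hypoxia in siControl, 0 were called for hypoxia in siARNT, 1 rose with siARNT in normoxia and 2 fell with siARNT in hypoxia. The list's median was 0.26, -0.17, 0.11 and -0.19, beside 0.02, -0.04, 0.01 and 0.02 over all genes. The gene that rose with siARNT in normoxia was GALK1, by 2.01 (SE 0.53, adjusted p 0.0236 in edgeR). The gene that rose with hypoxia was PGM1, phosphoglucomutase, which links glucose 6-phosphate to the UDP-sugars. Its mean was 52.2 ± 1.13 CPM with siControl and 53.3 ± 3.87 with siARNT in normoxia, and 83.1 ± 2.85 and 46.1 ± 0.984 in hypoxia. Its hypoxia change was 0.67 (adjusted p 1.58e-05) with siControl and -0.21 with siARNT (adjusted p 0.0757) in edgeR, with an interaction of -0.88 (SE 0.09, adjusted p 0.000192).

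Of 13 tested Golgi galactosyltransferases, 1 rose and 2 fell with hypoxia in siControl, 1 fell with hypoxia in siARNT, 3 rose and 2 fell with siARNT in normoxia, and 2 rose and 1 fell with siARNT in hypoxia. Their median was -0.09, -0.20, 0.22 and -0.06, beside 0.02, -0.04, 0.01 and 0.02 over all genes. B3GALT5, which makes type 1 chains, fell with siARNT in normoxia by 0.97 (adjusted p 4.75e-07) and in hypoxia by 1.46 (adjusted p 7.55e-09) in edgeR. B4GALT6, a lactosylceramide synthase, rose with siARNT in normoxia by 0.69 (adjusted p 0.000578) and in hypoxia by 1.30 (adjusted p 2.03e-06).

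SLC35A4 (ENSG00000176087.10, chr5:140564456-140569103 on the plus strand of GRCh38) held 42.8, 49.6 and 45.5 CPM in normoxia siControl and 49.4, 73.2 and 50 CPM in normoxia siARNT. In hypoxia it held 38.3, 43.9 and 35.6 CPM in siControl and 40.7, 48.9 and 51.9 CPM in siARNT. Library B of normoxia siARNT is the highest value, and the siARNT and siControl groups overlap at both oxygen levels. SLC35A4 was called in 0 of the 5 comparisons. Its log2 change with siARNT in normoxia was 0.32 (SE 0.15, adjusted p 0.134), and that in hypoxia 0.26 (SE 0.15, adjusted p 0.222). The change with hypoxia was -0.23 (SE 0.15, adjusted p 0.309) with siControl and -0.29 with siARNT (SE 0.15, adjusted p 0.304) in edgeR. Without library B of normoxia siARNT the hypoxia change with siARNT was -0.07, adjusted p 0.781, and the siARNT change in normoxia 0.10, adjusted p 0.568. Leaving out any of the 12 libraries in turn put the former between -0.39 and -0.07.

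Without library B of normoxia siARNT, the siARNT value of SLC35A4 in normoxia was 0.10 (adjusted p 0.568) and that in hypoxia was called (0.27, adjusted p 0.0492). After correction for GC content SLC35A4 was called for siARNT in hypoxia (0.27, adjusted p 0.00503) and for hypoxia in siControl (-0.29, adjusted p 0.00255). The event files list 0 events for it. In GENCODE 29 it overlaps APBB3 on the other strand, as SLC35A5 overlaps ATG3. The libraries were stranded per the labels, and the strand setting of the counting is not given in the sources used here.

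The genes that supply SLC35A3 did not all move one way. Of 5 tested genes that make UDP-GlcNAc, 1 fell with hypoxia in siControl, 0 were called for hypoxia in siARNT, and 2 rose and 1 fell with siARNT in normoxia, with the same counts in hypoxia. The list's median was -0.14, 0.02, 0.21 and -0.02, beside 0.02, -0.04, 0.01 and 0.02 over all genes. GNPNAT1, which acetylates glucosamine 6-phosphate, fell with hypoxia in siControl by 0.44 (adjusted p 0.00161), opposite to SLC35A3. It rose with siARNT in normoxia by 0.73 (adjusted p 8.59e-05) and in hypoxia by 0.94 (adjusted p 4.28e-06) in edgeR. UAP1, which makes the UDP-GlcNAc that SLC35A3 carries, fell with siARNT in normoxia by 0.87 (adjusted p 9.89e-05) and in hypoxia by 0.69 (adjusted p 0.000186).

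Of 16 tested Golgi GlcNAc transferases, 2 rose with hypoxia in siControl, 0 were called for hypoxia in siARNT, 6 rose and 3 fell with siARNT in normoxia, and 3 rose and 4 fell with siARNT in hypoxia. Over all genes 9.42% were called higher and 10.8% lower for siARNT in normoxia, and 14.4% and 14.7% in hypoxia. The median of the 16 was 0.11, -0.08, 0.25 and -0.07, beside 0.02, -0.04, 0.01 and 0.02 over all genes. GCNT3, which branches mucin cores, rose with hypoxia in siControl by 0.41 (adjusted p 0.00244) and fell with siARNT in normoxia by 0.63 (adjusted p 0.00027) and in hypoxia by 0.82 (adjusted p 1.39e-05) in edgeR. B3GNT5, which starts lacto-series glycolipids, fell with siARNT in normoxia by 0.50 (adjusted p 0.00214) and in hypoxia by 0.76 (adjusted p 4.48e-05). The largest rises with siARNT were those of MGAT5B and B3GNT9. MGAT5B rose in normoxia by 1.31 (SE 0.38, adjusted p 0.0333) and in hypoxia by 1.66 (SE 0.42, adjusted p 0.0112) in edgeR. B3GNT9 rose by 1.16 (adjusted p 0.000841) and 1.08 (adjusted p 0.000556) in the same order.

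Among 21 other SLC35 genes that could be tested, 1 rose and 7 fell with hypoxia in siControl, 1 fell with hypoxia in siARNT, 2 rose and 1 fell with siARNT in normoxia, and 5 rose and 3 fell with siARNT in hypoxia. For the interaction 3 were higher and 2 lower, where 2.49% and 2.19% of all genes were. The gene that rose with hypoxia, as SLC35A3 did, was SLC35F3 (0.63, adjusted p 0.00314 in edgeR), and it fell with siARNT in hypoxia by 1.17 (adjusted p 3.97e-05). SLC35F2 went the other way, falling with hypoxia in siControl (-0.54, adjusted p 5.02e-05) and rising with siARNT in hypoxia (0.62, adjusted p 1.06e-05). The median log2 change of the 21 was 0.03, -0.12, 0.13 and 0.01, beside 0.02, -0.04, 0.01 and 0.02 over all genes.

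Levels of different genes can be compared only per length. Per kb of annotated exon, normoxia siControl gave SLC35A1 18.5 ± 0.534 CPM, SLC35A5 12.5 ± 0.724, SLC35A4 11.4 ± 0.845, SLC35A3 4.72 ± 0.254 and SLC35A2 4.31 ± 0.323 (SD, n = 3). SLC35A5 and SLC35A4 differ by less than the sum of their SDs, as do SLC35A3 and SLC35A2. In hypoxia siControl the order was the same, with 20.6 ± 1.54, 13.4 ± 0.849, 9.76 ± 1.05, 7.69 ± 0.285 and 4.28 ± 0.383, and each gene then lay apart from its neighbours by more than that sum. The value of SLC35A3 depends on its annotated exon length of 18.24 kb, taken over all GENCODE 29 transcripts, against 1.99 kb for SLC35A1. A junction read needs no such length. By the most-read listed junction in normoxia siControl, SLC35A3 (6.75 ± 0.608 per M gene counts) and SLC35A1 (6.69 ± 0.363) differed by less than their SDs, with SLC35A5 at 2.94 ± 0.12 and the main junction of the 1 listed SLC35A2 event at 0.67 ± 0.255.

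The genes most like each SLC35A gene were taken by the highest Pearson r of log2 CPM over the 12 libraries, among the 9854 genes whose mean was 5 CPM or more. For SLC35A1 they were NFIB (r = 0.997), SYF2 (0.992) and AZI2 (0.99), and for SLC35A5 MKLN1 (0.985), CREG1 (0.984) and TMF1 (0.983). SLC35A3 was most like HOXA13 (0.984), DYRK2 (0.973) and ZBTB25 (0.969). SLC35A4 was most like KRI1 (0.992), ALG3 (0.991) and PHB1 (0.991), and SLC35A2 like DHCR7 (0.961), CDKN1A (0.941) and ANKRD52 (0.94). The libraries share 4 groups and their library effects, and the highest of many correlations are high by selection.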

How the data were processed

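Gene counts are whole reads per gene ID in each library, deposited by the authors. The deposited event files give junction read counts, intron coverage as a signal (intron retention) and the PSI, a fraction of the reads, per the file headers. The submitters' processing notes name Trimmomatic, STAR 2.4.2a and GRCh38.p10, without their roles. The tool and build behind the events are not given in the sources used here. Reads outside genes (22.71 to 25.2% of a library) were left out, and 51996 IDs, with 99.35% of counts, were paired with a symbol.

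Counts were tested with edgeR 4.0.16 in R 4.3.3 (TMM, filterByExpr, robust quasi-likelihood, all 12 samples, 1 mean per group). Intervals use 8 residual degrees of freedom. Events needed a mean of 20 inclusion plus exclusion reads and 10 reads of the rarer form. Inclusion, the mean of its junctions, was tested against exclusion in edgeR with a term per sample and a dispersion of 0, and intron retention with limma 3.58.1 on the logit of PSI (pseudocount 0.5). The dispersion of 0 was adopted after a fit with edgeR's trended dispersion had been seen to give few calls. The simulated data it was tested on resemble its own model, so they do not favour it independently, and the SLC35A genes had 0 called events under either. P-values were adjusted by Benjamini-Hochberg over all genes or all events. The labels do not say that replicates are separate experiments, so p-values measure only the spread between these samples. Alternatives were DESeq2 1.42.0, other scalings and filters, blocks, a GC correction and leaving out each library. All replicate pairs differed beyond sampling noise, by a chi-square of 4.3 to 89.11 per degree of freedom.

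Genes, lists and comparisons were chosen with earlier results of these data known. Named list genes come from the 2 largest called changes in each direction per list and comparison, at a mean of at least 1 CPM. Like genes are the 3 with the highest r. Events named are the most-read tested event per gene and kind, and 4 more of SLC35A3 were picked after their values were seen.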

Additional observations from a re-analysis of the deposited data

Results flagged for a closer look

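Of the SLC35A and list genes whose interaction was called (edgeR, Benjamini-Hochberg adjustment), that is, whose hypoxia change differed between siARNT and siControl, 8 are given. SLC35A3 is given as an SLC35A gene. The others met the rule for named genes, which takes the 2 largest calls in each direction per list at a mean of at least 1 CPM. SLC35A3 had an interaction of -0.55 (adjusted p 0.041). Among the other SLC35 transporters it was 0.67 for SLC35D1 (adjusted p 0.0161), -0.80 for SLC35D3 (adjusted p 0.0303), 0.48 for SLC35F2 (adjusted p 0.00718) and -0.87 for SLC35F3 (adjusted p 0.0205). Among the enzymes it was -0.88 for PGM1 (adjusted p 0.000192), 0.61 for B4GALT6 (adjusted p 0.028) and -0.48 for B3GALT5 (adjusted p 0.00432). On leaving out each of the 12 libraries in turn, the call was lost 0 times for PGM1, B3GALT5 and SLC35F2, 2 times for SLC35D1, 3 times for SLC35F3, 8 times for SLC35D3 and B4GALT6, and 11 times for SLC35A3. With a block for siRNA and letter it was lost for SLC35A3, SLC35F3, SLC35D3 and B4GALT6.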

How the results depend on the processing

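Of 510 values of the 5 genes under alternatives, 441 kept their direction and side of the threshold, 18 lost a call, 16 gained one and 35 changed sign, and the cause was not tested. The hypoxia rise of SLC35A3 stayed between 0.68 and 0.76 and was always called, as were the siARNT falls of SLC35A5, of SLC35A3 in hypoxia (-0.43 to -0.29) and of SLC35A1 in hypoxia (-0.60 to -0.39). Leaving out 1 library put the SLC35A1 fall in normoxia between -0.45 and -0.30 and the SLC35A3 interaction between -0.64 and -0.45. The interaction lost its call with RLE scaling (-0.55) and with a block for siRNA and letter (-0.54).

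Correction for GC content, alone and with the replicate block by letter, gained calls for hypoxia in siControl of SLC35A1 (0.19 and 0.19), SLC35A4 (-0.29 and -0.30) and SLC35A5 (0.14 and 0.14). It did so for siARNT in normoxia of SLC35A2 (-0.26 and -0.26) and SLC35A3 (0.30 and 0.30), and for siARNT in hypoxia of SLC35A4 (0.27 and 0.27). With the block it also did for SLC35A4 with hypoxia in siARNT (-0.19) and with siARNT in normoxia (0.16). It changed the sign of values that were not called: SLC35A2 for hypoxia in siARNT (0.05) and the interactions of SLC35A2 (0.18), SLC35A4 (0.11) and SLC35A5 (-0.06). SLC35A2 also changed sign with no filter for hypoxia in siControl (0.00) and siARNT in normoxia (0.02), and with total count scaling for siARNT in normoxia (0.03) and hypoxia (0.01).

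Leaving out 1 library gave -0.04 to 0.15 for SLC35A1 with hypoxia in siARNT and -0.19 to 0 for its interaction. SLC35A2 ranged from -0.07 to 0.05, -0.14 to 0.03, -0.12 to 0.06, -0.13 to 0 and -0.13 to 0.05 in the 5 comparisons, in the order of the report. The interactions of SLC35A4 and SLC35A5 ranged from -0.16 to 0.16 and from -0.02 to 0.09. SLC35A3 with siARNT in normoxia ranged from 0.06 to 0.26 and SLC35A4 with siARNT in hypoxia from 0.19 to 0.36.

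Same-letter libraries had correlations of their deviations from -0.38 to 0.47, and no comparison had all 3 above 0.1. The letters were therefore not treated as pairs in the main fit. Such correlations cannot exclude a pairing of the oxygen arms, since wells were divided after transfection. The replicate block by letter alone changed no call of the 5 genes and left 0 of their events called, but raised called events over the series to 323, 157, 401, 221 and 22, from 19, 0, 55, 24 and 2. Trended dispersion gave 4, 1, 1, 5 and 4. Its few calls were seen before the dispersion of 0 was adopted for the main fit, and it was kept as an alternative. Limma gave 17, 18, 11, 16 and 20, and the sum of junctions 41, 6, 97, 74 and 3. A pseudocount of 1 gave 0 for the interaction. Leaving out 1 library gave 4 to 31, 0 to 10, 9 to 54, 13 to 39 and 0 to 11, the low of 9 without normoxia siControl A. Called genes were 4299, 696, 3431, 4948 and 797, and 7067, 3812, 5377, 7707 and 3047 with GC correction (7307, 4054, 5705, 7953 and 3254 with the block). Hypoxia in siARNT gave 22 with its 6 samples only and 136 with the block for siRNA and letter, which gave 373 for the interaction, against 1495 with total count scaling. Leaving out 1 library gave 129 to 707 for hypoxia in siARNT, 1571 to 4148 for siARNT in normoxia and 272 to 1188 for the interaction.

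Total count scaling moved the share of higher calls from 53.9 to 65.8% (hypoxia in siARNT), 49.6 to 63.8% (siARNT in hypoxia) and 53.2 to 75.3% (interaction), with an all-gene median of 0.104 in siARNT hypoxia, and GC correction moved the first to 37.5%. The PSI differences of named events were recomputed only with 1 library left out, and under no other alternative. Of these 612 values 9 moved beyond 1 SD, with these libraries left out: C of normoxia siARNT (SLC35A3, 71-base acceptor, 2.5 points for siARNT in normoxia), A of hypoxia siARNT (SLC35A5, 10-base acceptor, 0) and A of normoxia siARNT (SLC35A1, 45-base exon, 2.4 points). First-exon shares and events of few reads are limited by depth.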
